A study of Mus musculus with 2 samples.

Results

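The genes described here encode the subunits of the receptors for GABA, glycine and glutamate. They were taken by name from a table of 19595 genes: every protein-coding gene whose symbol starts with Gabr, Gabbr, Glra or Glrb, or with Gria, Grik, Grin, Grid or Grm followed by a digit. This gave 46 genes, of which 45 encode receptor subunits, while Grid2ip encodes a protein that binds the delta receptor and was taken only because of its symbol. RNA came from ICR mouse cells of embryonic day 13, which the labels call brain neural stem cells. The control library (psicor, genotype WT) and the library with Ccdc25 knocked down (sh1, genotype KO) share strain, stage and cell type. The labels describe no vector beyond the names psicor and sh1. They give neither the time after its introduction nor the number of embryos or cultures.

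Each group has 1 library in the table, although the design text mentions triplicates, so no difference below was tested and none has a replicate check. Totals were 16549682 counts for the control and 16058407 for the knockdown library. Levels are CPM, library-scaled counts, with edgeR's TMM factors. Paired values give the control library first, and a ratio is knockdown over control with an exact conditional binomial 95% interval that covers counting error only. Genes were compared where the mean of the paired libraries reached 1 CPM, and 2-fold was the fixed size for a difference. Ccdc25 itself had 553 and 411 counts, a ratio of 0.794 (0.697 to 0.904). All 10 stem cell and radial glia markers had at least 1 CPM in both libraries, which does not by itself show which cells held them. The most abundant of them, Vim, reached 2879 and 3489 CPM.

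GABA and glycine act on chloride channels built from 5 subunits, and GABA also acts on a G protein-coupled receptor, GABA-B, which needs a pair of different subunits. Glutamate acts on cation channels built from 4 subunits, in the AMPA, kainate and NMDA classes with the related delta class, and on metabotropic receptors that couple to G proteins. In the developing brain GABA often depolarises immature cells, and these receptors appear on progenitors and glia as well as on neurons.

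Most receptor genes were lower in the knockdown library, but the classes differed from each other. Of the 40 genes past the minimum, 23 were at least 2-fold lower, against a background of 7.76% of all 14158 genes compared, and 2 were at least 2-fold higher, against 7.64%. The median log2 fold of the 40 was -1.16, and over all genes compared it was -0.0042. Of the 40 genes, 36 had at least 1 CPM in both libraries. Gabrb2, Gabrg3 and Grm8 passed the minimum only through the control library, and Grid2ip only through the knockdown library. The GABA-A class had the lowest median log2 fold, -1.94 over 11 genes, and the kainate class the highest, 0.28 over 5 genes. Summed over its genes, the GABA-A class took 223 and 80.0 CPM, whereas the kainate class took 333 and 391 CPM. These sums weight long transcripts more than short ones.

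**Figure D1:**
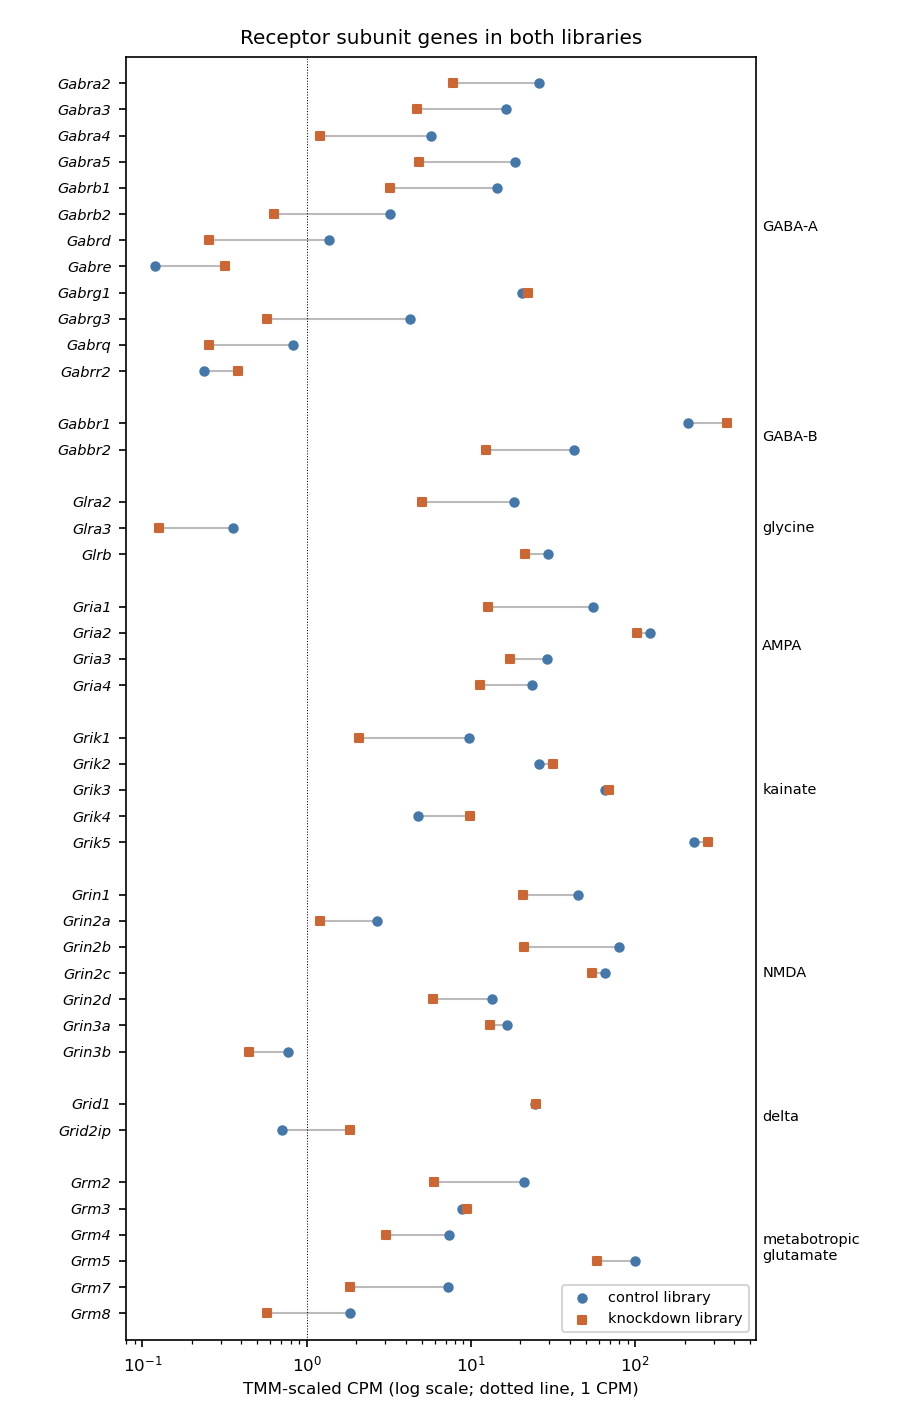
Level of the receptor genes named in the text in the control library (circles) and the knockdown library (squares), as TMM-scaled CPM on a log axis, grouped by receptor class. Most of the GABA-A genes shown have their square to the left of their circle, while Gabbr1, Grik2, Grik4 and Grik5 have it to the right.

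**Figure D2:**
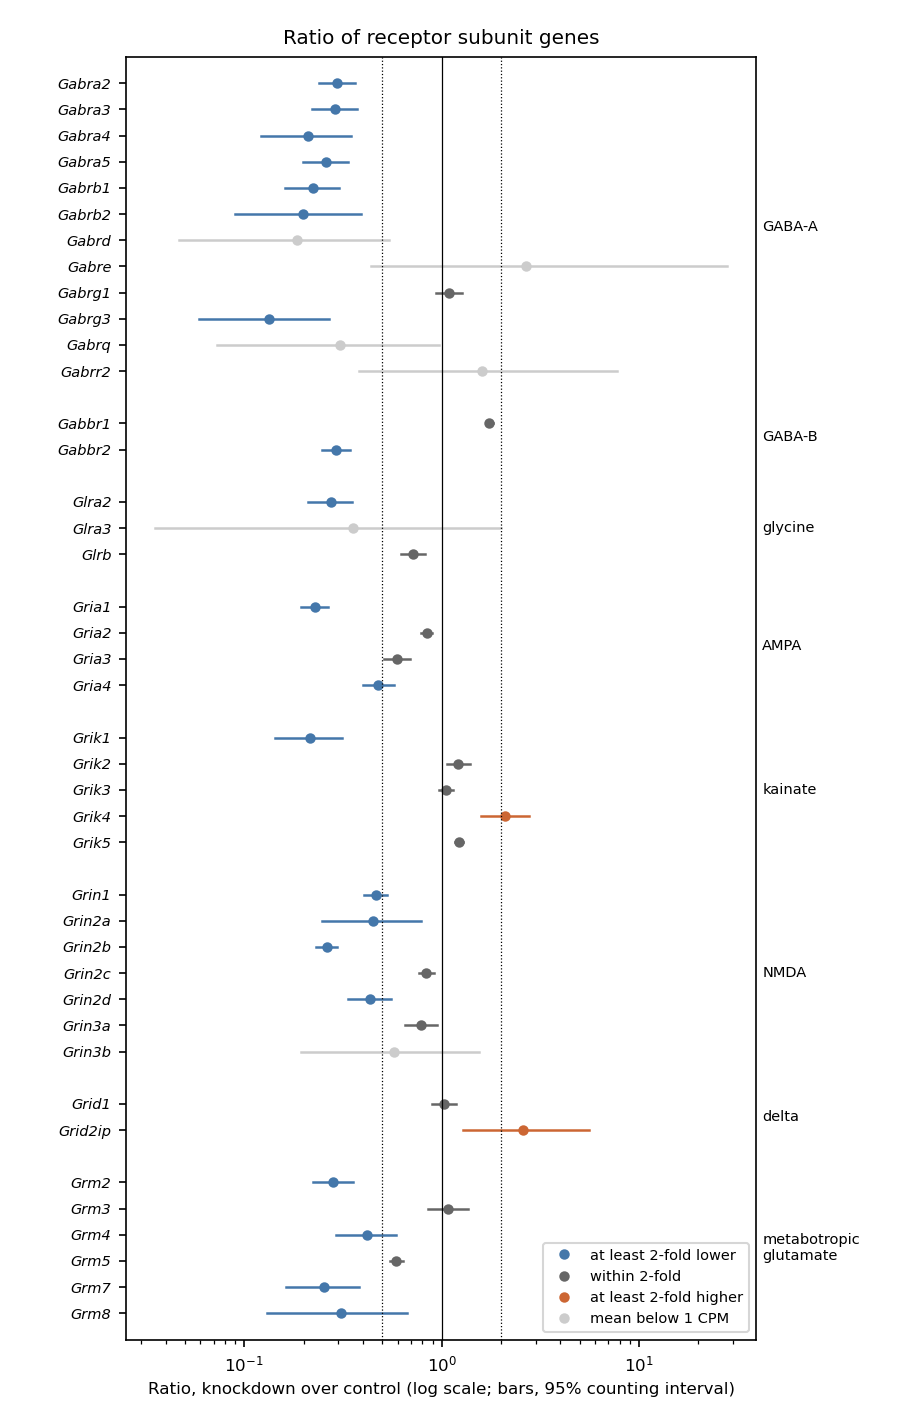
Ratio of knockdown to control for the receptor genes named in the text on a log axis, with bars for the 95% counting interval and dotted lines at 2-fold in either direction. Intervals are wide for genes with few counts, such as Gabre, and narrow for abundant ones, such as Grik5.

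GABA-A receptors usually combine alpha, beta and gamma subunits, and the alpha subunit sets much of the channel's pharmacology. The alpha genes Gabra2, Gabra3, Gabra4 and Gabra5 were at least 2-fold lower in the knockdown library, with log2 folds from -2.21 to -1.75. Gabra5, a subunit largely found outside synapses, had 313 and 76 counts, or 18.6 and 4.82 CPM, a ratio of 0.259 (0.199 to 0.334). Gabra2 had 440 and 122 counts, a ratio of 0.296 (0.240 to 0.363). Gabra3 had 275 and 74 counts, a ratio of 0.288 (0.219 to 0.373). These 3 are the alpha subunits typical of the embryonic brain, and their ratios lay within each other's intervals. Gabra4 had 96 and 19 counts, a ratio of 0.211 (0.122 to 0.348). These alpha genes therefore differed little from each other in ratio. Gabra5 took 39.9% of the alpha counts per exon length in the control (95% counting interval 36.8% to 43.1%, with the mix of the other subunits held fixed) against 38.7% in the knockdown library (32.5% to 45.1%).

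Beta subunits form the GABA binding site together with alpha subunits. Gabrb1 had 244 and 51 counts, or 14.5 and 3.23 CPM, a ratio of 0.223 (0.162 to 0.303). Gabrb2 had 54 and 10 counts, a ratio of 0.198 (0.0898 to 0.392). Both were at least 2-fold lower, and Gabrb2 passed the minimum only through the control library.

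Gamma subunits place receptors at synapses, and their genes Gabrg3 and Gabrg1 did not move together. Gabrg3 had 72 and 9 counts, a ratio of 0.134 (0.0587 to 0.268), the lowest of all 40 genes compared. It passed the minimum only through the control library. Gabrg1, a gamma subunit that astrocytes also express, had 345 and 352 counts, or 20.5 and 22.3 CPM, a ratio of 1.09 (0.937 to 1.27). The Gabrg1 interval included 1 and lay apart from those of the GABA-A genes Gabra2, Gabra3, Gabra4, Gabra5, Gabrb1, Gabrb2 and Gabrg3. In shares per exon length, Gabrg1 made up 35.7% of the gamma family in the control (32.5% to 38.9%) against 69.4% in the knockdown library (64.8% to 73.8%).

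Means below 1 CPM were found for 4 GABA-A genes. Gabrd, the delta subunit of extrasynaptic receptors, had 23 and 4 counts, a ratio of 0.186 (0.0467 to 0.544). Gabrq had 14 and 4 counts, Gabre 2 and 5, and the rho subunit gene Gabrr2 4 and 6. At this depth the ratios of Gabre and Gabrr2 could not be told from 1.

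Mouse GABA-A genes lie in clusters. On chromosome 7, the neighbours Gabrg3 and Gabra5 had log2 folds of -2.84 and -1.94. On chromosome X, Gabra3 had a log2 fold of -1.79 between Gabre and Gabrq, which had too few counts to be compared. The chromosome 5 cluster was mixed: over 1398 kb, Gabrg1 had 0.12, Gabra2 -1.75, Gabra4 -2.21 and Gabrb1 -2.15. Gabrg1 (ENSMUSG00000001260, chromosome 5, 70751047 to 70842617, minus strand) lies at one end of it, next to Gabra2 (70957597 to 71095849, minus strand). Gabra4 (71569749 to 71658308, minus strand) and Gabrb1 (71658113 to 72149037, plus strand) are head to head and share 46 exonic bases, which is 0.756% of the exonic length of Gabra4.

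**Figure D3:**
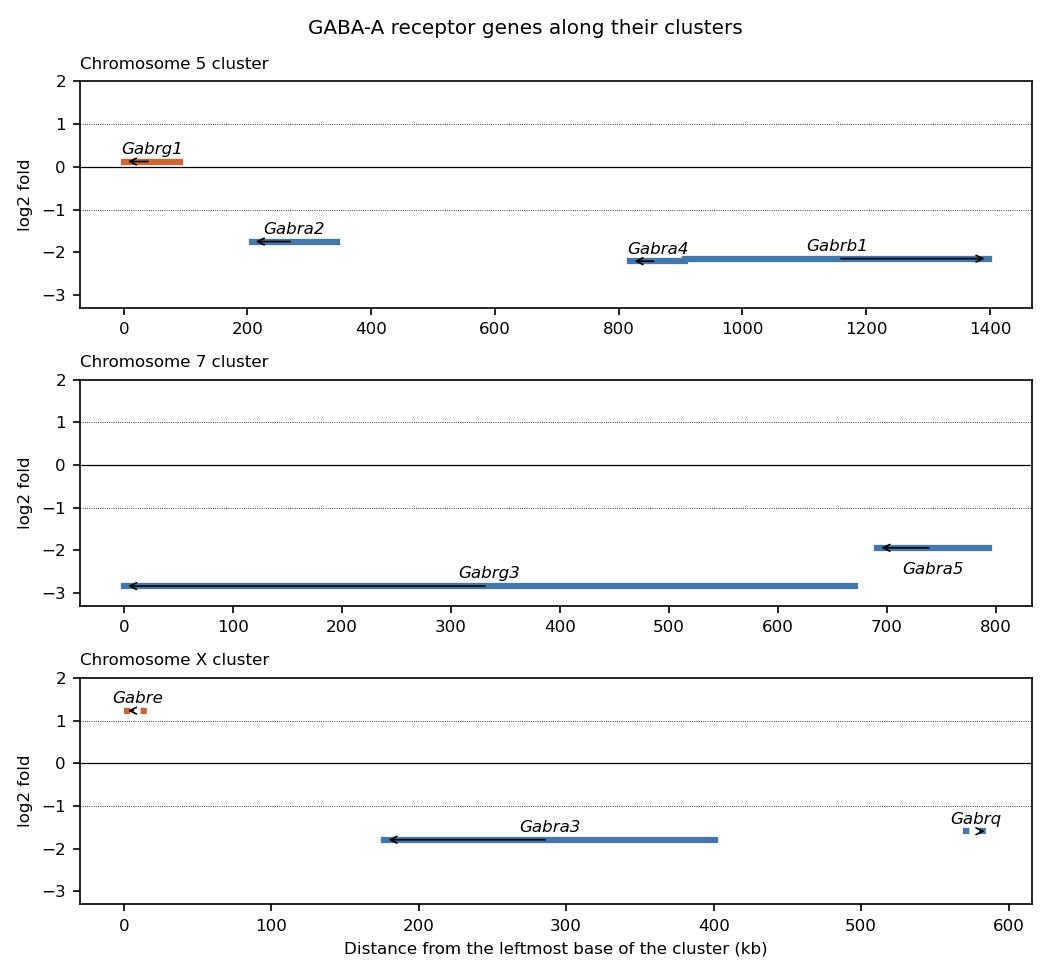
Log2 fold of GABA-A genes of the chromosome 5, 7 and X clusters against distance in kb from the leftmost base of each cluster, with arrows in the direction of transcription, solid bars for genes past the minimum and dotted bars for those below it. In the chromosome 5 cluster Gabrg1 lies just above 0, and its 3 neighbours lie below -1.

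Because Gabrg1 stood apart from its cluster neighbours, the start regions of these 4 genes are shown from RefSeq (GRCm38.p6), each from 250 bases before to 50 after the start, 5′ to 3′ on the gene's strand, with each CG pair (CpG) in capitals. The windows are chr5:70842568-70842867 (minus) for Gabrg1, chr5:71095800-71096099 (minus) for Gabra2, chr5:71658259-71658558 (minus) for Gabra4 and chr5:71657671-71657970 (plus) for Gabrb1. For Gabrb1 the RefSeq start, 71657921, differs from the gene start printed above, 71658113, and its window ends before the latter.
Gabrg1: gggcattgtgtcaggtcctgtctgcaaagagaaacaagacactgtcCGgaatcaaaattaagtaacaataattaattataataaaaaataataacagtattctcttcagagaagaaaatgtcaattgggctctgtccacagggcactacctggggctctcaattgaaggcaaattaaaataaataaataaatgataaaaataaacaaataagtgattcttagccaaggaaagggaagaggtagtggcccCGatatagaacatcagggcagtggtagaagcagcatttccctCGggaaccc
Gabra2: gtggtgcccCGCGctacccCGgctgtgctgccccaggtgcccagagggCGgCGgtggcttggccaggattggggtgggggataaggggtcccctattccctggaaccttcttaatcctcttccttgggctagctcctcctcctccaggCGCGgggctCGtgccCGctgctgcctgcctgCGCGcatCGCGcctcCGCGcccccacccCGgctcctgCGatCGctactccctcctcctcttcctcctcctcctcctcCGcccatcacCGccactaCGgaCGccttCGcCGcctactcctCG
Gabra4: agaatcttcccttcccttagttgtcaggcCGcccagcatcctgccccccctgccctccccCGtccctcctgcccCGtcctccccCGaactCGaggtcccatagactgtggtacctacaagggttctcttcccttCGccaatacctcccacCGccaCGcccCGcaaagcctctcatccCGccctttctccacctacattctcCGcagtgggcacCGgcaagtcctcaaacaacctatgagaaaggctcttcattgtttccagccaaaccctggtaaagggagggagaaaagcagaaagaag
Gabrb1: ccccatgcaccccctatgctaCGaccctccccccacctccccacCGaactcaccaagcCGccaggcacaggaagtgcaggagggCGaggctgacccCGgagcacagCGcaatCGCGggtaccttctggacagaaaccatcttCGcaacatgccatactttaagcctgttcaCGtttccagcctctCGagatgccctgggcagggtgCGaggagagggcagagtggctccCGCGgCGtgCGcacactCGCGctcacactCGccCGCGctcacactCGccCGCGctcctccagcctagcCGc
The window of Gabrg1 holds 3 CpG and 38.3% G and C, with stretches made largely of A and T on either side of its centre. The windows of Gabra2 and Gabrb1 hold 25 CpG each, with 70.0% and 66.0% G and C, and that of Gabra4 holds 12 CpG with 58.7%. The table gives Gabrb1 another start window, chr5:71699682-71699981 (plus), which is not shown and holds 9 CpG with 50.3% G and C. Of all 32851 windows of this length in the table, 31.4% hold at most 3 CpG, so the Gabrg1 window is not rare. The hexamer GGGCGG, searched on both strands, occurs in the windows of Gabra2 and Gabra4 and in 35.7% of all windows. None of the 4 windows holds CAGCTG (present in 16.3% of all windows on either strand), the related hexamer CAGATG (17.2%) or the TATA box as TATAAA (13.6%). Across the receptor genes the ranges of CpG number overlapped. Of the 26 genes past the minimum with a window, taking the window richest in CpG, the 15 at least 2-fold lower held 0 to 46 CpG with a median of 15, and the other 11 held 3 to 50 with a median of 22.

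The GABA-B pair differed in opposite directions. Gabbr1 (ENSMUSG00000024462, chromosome 17, 37045966 to 37075067, plus strand), the subunit that binds GABA, had 3513 and 5731 counts, or 208 and 363 CPM, a ratio of 1.74 (1.67 to 1.82). Gabbr2 (ENSMUSG00000039809, chromosome 4, 46662305 to 46991873, minus strand), the subunit that couples to the G protein and brings the pair to the cell surface, had 713 and 195 counts, or 42.3 and 12.4 CPM, a ratio of 0.292 (0.248 to 0.343). Gabbr1 stayed within 2-fold and its interval lay above 1, and Gabbr2 was at least 2-fold lower. Per kb of exon, Gabbr1 reached 26.9 and 46.8 CPM and Gabbr2 6.33 and 1.85 CPM. Gabbr1 made up 80.9% of the pair per exon length in the control (79.6% to 82.2%) against 96.2% in the knockdown library (95.6% to 96.7%).

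Glycine receptors combine alpha subunits with the beta subunit, which binds the scaffold gephyrin. Glra2, the alpha subunit of the embryonic brain, had 308 and 79 counts, or 18.3 and 5.01 CPM, a ratio of 0.274 (0.211 to 0.352). Glrb, the beta subunit, had 497 and 334 counts, or 29.5 and 21.2 CPM, a ratio of 0.718 (0.623 to 0.827). Glra2 was at least 2-fold lower and Glrb was not, and their intervals did not overlap. Glra3 was below the minimum with 6 and 2 counts.

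The AMPA genes were all below their control level, by unequal amounts. Gria1 (ENSMUSG00000020524, chromosome 11, 57011387 to 57330244, plus strand) had 936 and 199 counts, or 55.5 and 12.6 CPM, a ratio of 0.227 (0.194 to 0.265). Gria2 (ENSMUSG00000033981, chromosome 3, 80681450 to 80802835, minus strand), whose edited transcript gives the subunit that keeps calcium out of the channel, had 2068 and 1626 counts, or 123 and 103 CPM, a ratio of 0.840 (0.787 to 0.897). Gria1 was thus at least 2-fold lower and Gria2 was near its control level. Gria3 had 492 and 274 counts, a ratio of 0.595 (0.511 to 0.691). Gria4, a subunit of early networks and interneurons, had 398 and 178 counts, a ratio of 0.478 (0.398 to 0.572). By counts per exon length, Gria1 and Gria2 took 38.6% and 33.2% of the AMPA family in the control, and 17.0% and 54.0% in the knockdown library. The place of Gria1 as the leading gene of the control depends on the length used: per longest coding length the Gria2 share was 53.6% in the control against 71.7% in the knockdown library. With each length used, the Gria2 share was higher in the knockdown library. Because Gria2 had the highest ratio of the AMPA genes, no choice of length could reverse this.

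**Figure D4:**
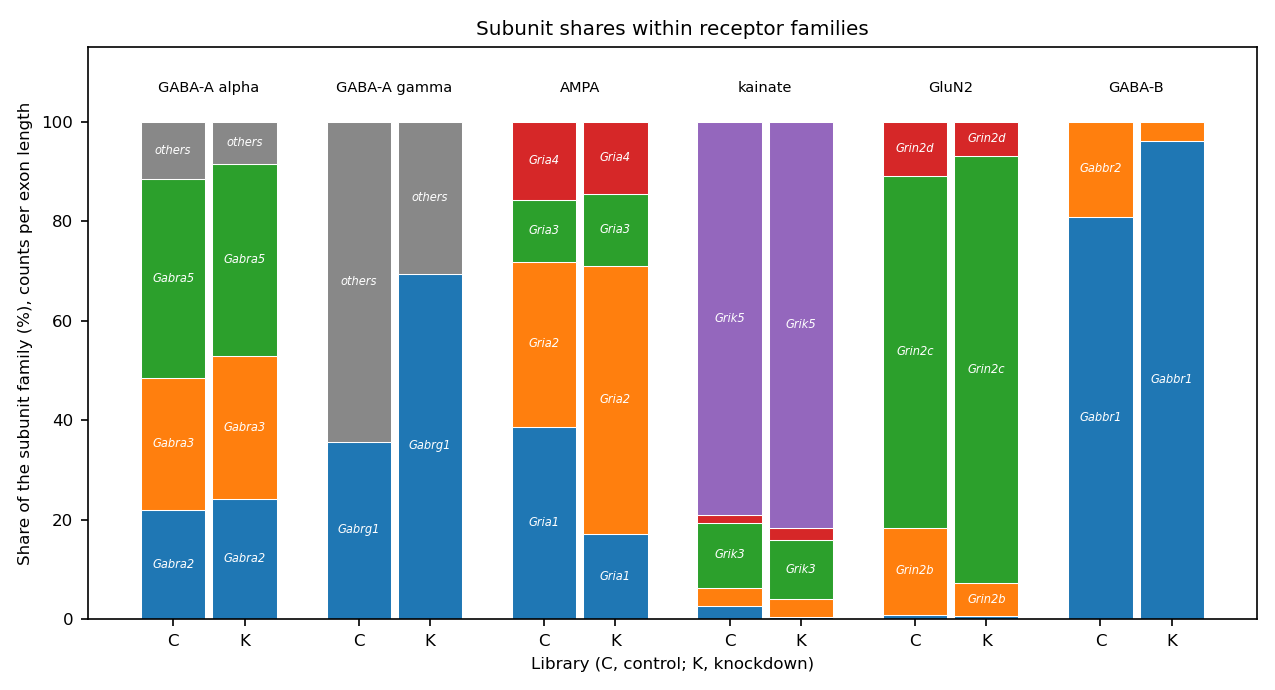
Share of each subunit in its family, as counts per exon length, in the control (C) and knockdown (K) library for 6 families, with bars that add up to 100% and grey for subunits shown together. Gabrg1, Gria2 and Gabbr1 take a larger share in the knockdown library, while Gabra2, Gabra3 and Gabra5 have like shares in both.

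Of the kainate genes, 4 of 5 were above their control level, and Grik1 was the exception. Grik5 (ENSMUSG00000003378, chromosome 7, 25009849 to 25072346, minus strand), a high-affinity subunit that needs a partner of the Grik1 to Grik3 group to form a channel, was the most abundant per exon length, with 3819 and 4387 counts, or 227 and 278 CPM, a ratio of 1.23 (1.17 to 1.28). Grik4, the other high-affinity subunit, had 80 and 156 counts, or 4.75 and 9.89 CPM, a ratio of 2.08 (1.58 to 2.76). Grik4 was the 1 receptor subunit gene at least 2-fold higher, and its interval reached below 2. Grik2 had 440 and 501 counts, a ratio of 1.22 (1.07 to 1.39). Grik3 had 1107 and 1092 counts, a ratio of 1.05 (0.969 to 1.15), with an interval that included 1. Grik1, a subunit of many interneurons, had 164 and 33 counts, or 9.73 and 2.09 CPM, a ratio of 0.215 (0.143 to 0.314). Grik5 led this family in both libraries, with 79.2% of its counts per exon length in the control against 81.7% in the knockdown library, and Grik1 made up 2.61% and 0.472%.

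NMDA receptors contain the obligatory subunit GluN1, encoded by Grin1, with GluN2 or GluN3 subunits. All 6 NMDA genes compared were below their control level and 4 were at least 2-fold lower. Grin1 had 755 and 328 counts, or 44.8 and 20.8 CPM, a ratio of 0.464 (0.407 to 0.529). It shares 1307 of 9700 exonic bases with its antisense gene Grin1os, which had 30 and 17 counts. Grin2b (ENSMUSG00000030209, chromosome 6, 135713233 to 136173511, minus strand), the main GluN2 subunit of the embryonic forebrain, had 1350 and 332 counts, or 80.1 and 21.1 CPM, a ratio of 0.263 (0.232 to 0.297). Grin2c (ENSMUSG00000020734, chromosome 11, 115249169 to 115267243, minus strand), known from cerebellar granule cells and astrocytes, had 1103 and 864 counts, or 65.5 and 54.8 CPM, a ratio of 0.837 (0.765 to 0.916). Grin2b was at least 2-fold lower and Grin2c was not, and their intervals did not overlap. Grin2d had 227 and 92 counts, a ratio of 0.433 (0.336 to 0.554). Grin2a, the GluN2 subunit of the mature brain, had 45 and 19 counts, a ratio of 0.451 (0.249 to 0.787). Grin3a, a GluN3 subunit of developing neurons, had 279 and 206 counts, a ratio of 0.789 (0.656 to 0.948). Grin3b was below the minimum with 13 and 7 counts, and 1059 of its 3296 exonic bases overlap Tmem259 on the opposite strand, which had 3985 and 3905 counts.

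The share of Grin2b among the 4 GluN2 genes was 17.5% per exon length in the control against 6.69% in the knockdown library, but its annotated exons cover 24842 bases against 5037 for Grin2c. Per longest coding length, Grin2b made up 45.5% and 22.3%, and Grin2c 44.4% and 69.5%. Which of the pair led in the control therefore depended on the length, and in the knockdown library Grin2c led with each length used.

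Delta receptors bind cerebellins across the synapse. Grid1 had 411 and 394 counts, or 24.4 and 25.0 CPM, a ratio of 1.02 (0.890 to 1.18). Its interval included 1, so no difference was detectable at this depth, and its log2 fold was 0.035 with TMM and -0.017 with total-count scaling. Grid2ip, the binding protein, had 12 and 29 counts, a ratio of 2.58 (1.28 to 5.56), and passed the minimum only through the knockdown library. It shares 645 of 6773 exonic bases with Gm20635 on the opposite strand, which had 5 and 0 counts.

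Metabotropic glutamate receptors fall into group I, which raises intracellular calcium, and groups II and III, which lower cyclic AMP. In group I, Grm5 (ENSMUSG00000049583, chromosome 7, 87584168 to 88134907, plus strand), which progenitors and astrocytes also express, had 1671 and 924 counts, or 99.2 and 58.6 CPM, a ratio of 0.591 (0.545 to 0.641). It stayed within 2-fold. In group II, Grm2, a presynaptic receptor of neurons, had 356 and 94 counts, or 21.1 and 5.96 CPM, a ratio of 0.282 (0.222 to 0.355). Grm3, which astrocytes express as well, had 148 and 149 counts, or 8.78 and 9.45 CPM, a ratio of 1.08 (0.851 to 1.36). This was another pair of close relatives with intervals apart, although Grm2 shares 470 of 4894 exonic bases with the opposite-strand gene Gm28111. All 3 group III genes compared were at least 2-fold lower. Grm7, a receptor of presynaptic active zones, had 122 and 29 counts, a ratio of 0.254 (0.163 to 0.383). Grm4 had 123 and 48 counts, a ratio of 0.417 (0.292 to 0.587). Grm8 had 31 and 9 counts, a ratio of 0.310 (0.130 to 0.668), and passed the minimum only through the control library.

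Several families thus held a gene within 2-fold of its control level beside a gene at least 2-fold lower. Such pairs, picked out after their values were seen, were Gabrg1 beside Gabrg3, Gabbr1 beside Gabbr2, Glrb beside Glra2, Gria2 beside Gria1, Grik2 beside Grik1, Grin2c beside Grin2b and Grm3 beside Grm2. The choice of these pairs fixes that their ratios differ, and Gabrg3 passed the minimum only through the control library.

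Genes that make, move or anchor these receptors and their transmitters were taken from 7 lists of 88 genes in all. Of the 80 past the minimum, 20 were at least 2-fold lower and 11 at least 2-fold higher, with a median log2 fold of -0.074, against the background of 7.76% lower and 7.64% higher over all genes compared. The same background applies to each list, and a count of 1 gene in a list of 8 or more is near it. In the list for GABA and glycine supply, 3 of 8 genes were lower and 3 higher. Gad1, an enzyme of GABA synthesis, stood at 62.5 and 10.7 CPM, Gad2 had a log2 fold of -3.02, and the vesicular transporter Slc32a1, which shares 697 of 2797 exonic bases with Gm14205, had -2.98. The 3 higher genes, named after their values were seen, encode the GABA-degrading enzyme Abat (log2 fold 2.38), the glycine transporter Slc6a9 (1.95) and the GABA transporter Slc6a11 (1.33). Of these, Slc6a9 shares 1429 of 5141 exonic bases with Ccdc24 on the opposite strand, which had 11 and 6 counts. Among these 6 genes, those of synthesis and vesicle loading were on the lower side, and those of uptake and breakdown on the higher side. For glutamate supply, 2 of 9 genes were lower, the vesicular transporters Slc17a6 at -2.50 and Slc17a7 at -1.58, and 1 was higher, the mitochondrial enzyme Glud1 at 2.06.

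Among 5 chloride transporter genes, 1 was lower and 0 were higher. Slc12a5, the neuronal exporter that makes GABA inhibitory, reached 65.0 and 22.0 CPM, a ratio of 0.339 (0.299 to 0.382). Slc12a7 was within 2-fold at a log2 fold of -0.86. Of 13 inhibitory scaffold and GABA receptor partner genes, 11 were within 2-fold. The exceptions were Kctd12, an auxiliary subunit of GABA-B receptors, at -1.29, and Mdga1, which binds neuroligin, at 1.14. Kctd12 shares 3805 of 6057 exonic bases with the opposite-strand gene Gm26778. Gabarap, a GABA-A receptor trafficking protein, had 0.60. With 1 gene lower and 1 higher, this list was near the background in both directions.

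The 17 auxiliary genes of AMPA and kainate receptors were divided, with 7 lower, 4 higher and a median of -0.78. Cacng2, the AMPA auxiliary subunit stargazin, had a log2 fold of -2.11, while Nptx1, a pentraxin that gathers AMPA receptors, had 2.29 and the AMPA auxiliary gene Gsg1l 2.15. The other 2 higher genes, named after their values were seen, were Cacng5 at 1.90 and Shisa9 at 1.78, which also encode AMPA auxiliary subunits. Of 20 glutamate receptor scaffold genes, 4 were lower and 0 higher, with a median of -0.43. Dlg2 had -2.44, Dlgap2 -1.79 and Shank1 -1.65, and the fourth, Grip2, which was named after its value was seen, had -1.10. Dlgap2, with 42 and 11 counts, passed the minimum only through the control library. The list for extracellular partners of delta receptors held Cbln, C1ql and Nrxn genes. A place in this list does not show that a gene's product binds these receptors. Of its 8 genes past the minimum, 2 were lower and 2 higher. C1ql1 had 19 and 369 counts, a ratio of 20.8 (13.1 to 34.9), Cbln3 had a log2 fold of 1.63 and Nrxn3 -1.62. Cbln3, with 10 and 30 counts, passed the minimum only through the knockdown library. The second lower gene, Cbln4, was named after its value was seen and had -1.20.

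Markers of other cell types differed between the libraries beside these receptor genes. For the marker lists too, the background over all genes compared was 7.76% lower and 7.64% higher. Of 10 neuron markers, 6 were at least 2-fold lower, with a median log2 fold of -1.60 and a summed level of 2851 and 1295 CPM. Tubb3, the most abundant, stood at 1098 and 344 CPM. Of 9 interneuron markers 7 were lower, with a median of -2.69 and a sum of 313 and 95.4 CPM, and Sst stood at 88.7 and 9.89 CPM. All 3 Cajal-Retzius markers past the minimum were lower, with a sum over the list of 54.5 and 6.72 CPM, and Reln stood at 45.0 and 2.85 CPM. Trp73 of this list, with 30 and 4 counts, passed the minimum only through the control library. The same holds for Dlx6 of the interneuron list, with 72 and 10 counts. The median of the 11 GABA-A genes compared was -1.94, and the single genes ranged from -2.84 (Gabrg3) to 0.12 (Gabrg1). Among these 11, Gabrb2 and Gabrg3 passed the minimum only through the control library. The neuron median lay above -1.94, and the interneuron, Cajal-Retzius (-2.67) and mesenchyme (-2.21) medians lay below it. In RNA from a mixture of cells, fewer cells of a type and less RNA per cell cannot be told apart.

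Most glial markers lay on the other side. Of 7 astrocyte markers 4 were past 2-fold on the higher side and 0 on the lower, with a sum of 463 and 1713 CPM, and Aldoc stood at 235 and 774 CPM. S100b, among the 4 higher genes, had 8 and 146 counts and passed the minimum only through the knockdown library. Of 6 oligodendrocyte precursor markers 4 were higher, with a sum of 2912 and 4525 CPM, and Olig1 stood at 1751 and 2432 CPM. Of the oligodendrocyte list 4 of 5 genes were higher, with a sum of 100.2 and 758 CPM, and Cnp stood at 85.2 and 565 CPM. The fifth, Mog, had 24 and 11 counts, a ratio of 0.490 (0.217 to 1.04). Mog passed the minimum only through the control library, and Mag only through the knockdown library. Mobp was below the minimum with 11 and 10 counts. The intermediate progenitor markers, with 3 of 6 higher, summed to 381 and 631 CPM. Neural stem cell markers summed to 6643 and 8498 CPM, with 1 of 10 at least 2-fold higher, near the background of 7.64%. No marker of these neural lists was at 0 in either library, and Gad1, Gad2 and Slc32a1 belong to the interneuron list and to that for GABA supply.

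Of the markers of cells of other origin, those of microglia and endothelial cells had low levels, and those of mesenchyme were more abundant. The 6 microglia markers summed to 5.52 and 1.65 CPM, with Csf1r, Cx3cr1 and Tmem119 at 0 in the knockdown library and Aif1 at 2.02 and 1.08 CPM. The 6 mesenchyme markers summed to 70.7 and 18.1 CPM, with Lum at 0 in the knockdown library and Col1a1 at 34.7 and 11.5 CPM. All 5 mesenchyme markers past the minimum were at least 2-fold lower, with a median log2 fold of -2.21. Of these, 3 had at least 1 CPM in both libraries. The 3 endothelial markers in the table summed to 2.37 and 1.14 CPM, with Cdh5 at 0 in the knockdown library and Kdr at 1.48 and 0.571 CPM. The part of any cell type in the receptor differences was not tested.

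**Figure D5:**
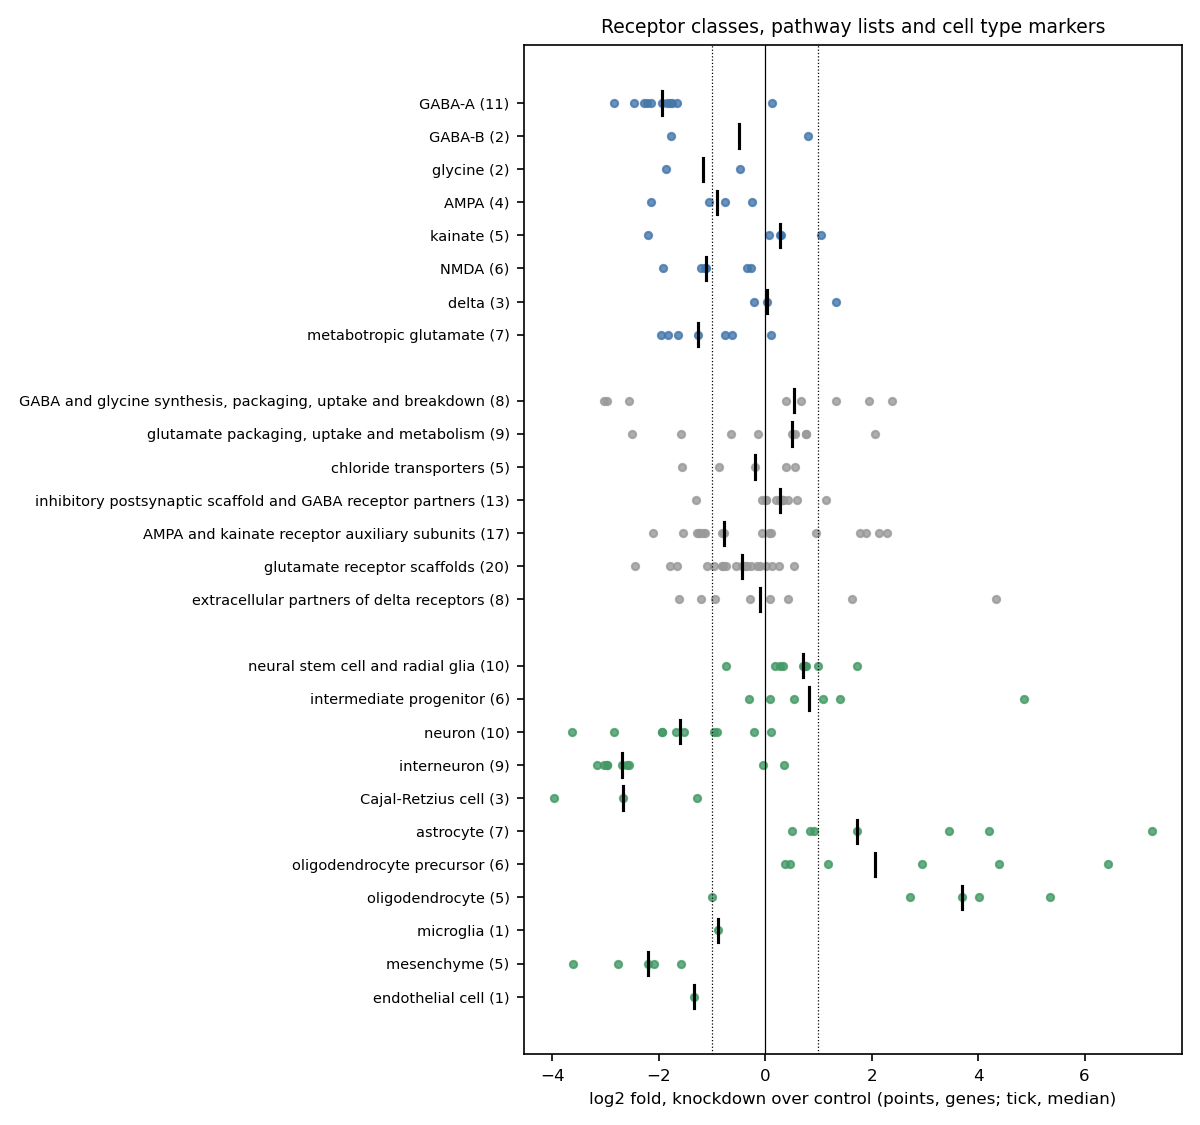
Log2 fold of each gene past the minimum (points) with the median (tick) for the 8 receptor classes, the 7 pathway lists and the 11 marker lists, with the number of genes in brackets. The GABA-A, neuron, interneuron, Cajal-Retzius and mesenchyme medians are among those below -1, and the kainate and delta medians lie near 0. The delta class includes Grid2ip, which is not a receptor subunit and passed the minimum only through the knockdown library.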

How the data were processed

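The authors deposited 1 table of raw counts, per the file headers, with 1 count column for each library. The submitters' processing notes list TopHat2 2.0.12, Bowtie2 2.2.3, the counter HTSeq 0.6.0 and mm9, without order or settings. The strandedness of the libraries and of the counting is not given in the sources used here. Printed gene positions are the table's own and correspond to GRCm38. GENCODE M21 held 19557 of the 19595 gene IDs and gave exon and coding lengths and shared exonic bases. The deposited normalised values, folds and p-values were not used.

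The counts were scaled over the whole table with edgeR 4.0.16 (TMM factors 1.018 and 0.982). A log2 fold uses the count plus 0.5, and CPM and ratios use no addition. With 1 library per group no test was made. A floor of 3 counts is 0.178 CPM (control) and 0.190 CPM (knockdown). Reads copied by PCR are not independent molecules, so the intervals, computed in SciPy 1.17.1, cover counting error only. A share per exon length divides counts by the union of a gene's annotated exons. Calculations were tested on simulated data.

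The genes, classes, 7 pathway lists, 11 marker lists and alternatives were chosen with earlier results of these data known. The rule named every receptor gene past 1 CPM, the 3 genes of each pathway list furthest from 0 and the most abundant gene of each marker list, and single values of some of these are not reported here. RefSeq gave a start region for 31 of the 46 receptor genes. Alternatives were DESeq2 1.42.0 size factors, total-count scaling, a prior count of 5, no minimum, a minimum of 10 CPM, a 1.5-fold threshold and other lengths.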

Additional observations from a re-analysis of the deposited data

How the results depend on the processing

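No paired analysis was possible because each group has 1 library, and for the same reason none could be left out. The 23 receptor genes at least 2-fold lower and the 2 higher were the same genes with DESeq2's size factors and with total-count scaling. A prior count of 5 lost Grin2a from the lower genes. Without a minimum, Gabrd, Gabrq and Glra3 joined the lower genes and Gabre the higher ones, and at 1.5-fold the lower genes numbered 26, with Gria3 and Grm5 among those added, and Gabbr1 joined the higher ones. A minimum of 10 CPM left 24 genes, with 12 lower and 0 higher, because fewer genes were compared. No class median moved beyond the median counting interval of its genes with another scaling, prior count or minimum. That yardstick is the median of single-gene bounds and is not an interval for a class median. At a minimum of 10 CPM the NMDA median went from -1.12 over 6 genes to -0.72 over 4, which is within 2-fold. The delta median, which includes Grid2ip, turned from 0.035 to -0.017 with total-count scaling. That scaling moved 4 of 73 named genes beyond their interval, and none of the 4 changed direction. Total-count scaling moved the median log2 fold of all genes from -0.0042 to -0.057.

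Shares within a family moved with the length. Given per longest coding length and then as plain counts, control before knockdown library, they were as follows. Gabbr1 took 82.8% and 83.1% of its pair in the control, and 96.7% as plain counts in the knockdown library. Gria2 took 53.6% and 53.1%, then 71.7% and 71.4%. Gabrg1 took 41.0% and 40.6%, then 74.8% and 74.4%. Grin2b took 45.5% and 49.5%, then 22.3% and 25.4%. Grin2c took 44.4% and 40.5%, then 69.5% and 66.1%. Grik5 took 66.7% and 68.1%, then 69.8% and 71.1%. The direction of the difference between the libraries was the same with each length for these 6 genes. Lengths are the same in both libraries, so a gene with the highest or lowest ratio of its family keeps its direction with any length. This fixed the outcome in advance for each of these genes except Grik5.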
